A study of Arabidopsis thaliana with 11 samples.

Results

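The MATE efflux transporter genes AT3G23550, AT1G71140 and AT1G15170 were followed through the shoots of Arabidopsis seedlings that overexpressed CBF4 or AtNF-YB1. They are 3 of the 11320 gene loci that the arrays measured under a name, each read by a single probe set (MRT3702_12802C.2_at, MRT3702_5565C.2_at and MRT3702_1377C.2_at). The genes were picked by name from earlier results on these arrays. All 3 were grouped as MATE genes lower with CBF4, and AT1G15170 had first been singled out for its difference between AtNF-YB1 plants and wild type. Their values in those comparisons are therefore given as a description, with no p-value. Where the text counts how many passed a threshold there, the count is a description too.

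MATE transporters are membrane proteins that move organic molecules out of the cytosol, to the vacuole or to the outside of the cell, in exchange for protons or sodium ions. In plants they carry, among others, flavonoids, organic acids, alkaloids, hormones and foreign compounds. The family is large in Arabidopsis, and many of its genes lie side by side as close copies. CBF4 is a transcription factor of the CBF/DREB1 group, which turns on cold- and drought-inducible genes, and AtNF-YB1 encodes a B-type subunit of NF-Y, a complex that binds CCAAT boxes in promoters.

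The study held 11 arrays of shoots from seedlings 14 days old, grown on MS plates under 24 h of light per day, each from a pool of up to 24 seedlings. Col-0 wild type was read on 3 arrays. Plants with 35S::AtNF-YB1 were read as lines 3 and 6, and plants with 35S::CBF4 as lines 10 and 19, on 2 arrays per line. The 35S promoter is active in most tissues, so neither construct marks a cell type, and each line is a separate transformant; the series text calls the AtNF-YB1 lines homozygous, while for the second CBF4 line it gives a number beside the 19 that the titles use. The series text calls the replicates biological; growth batches are not named, and p-values reflect only how far pools of seedlings varied.

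The arrays differed in brightness, with a median deposited plant probe set intensity of 9.23 to 22.7, and the levels below are log2 values after quantile normalization over the 11 arrays. Neither transgene was measured under a name. Of 15 listed CBF regulon genes 6 were measured under a name, and 4 of these passed the limma test (adjusted p below 0.05) as higher in the CBF4 lines, where 0.181% of plant probe sets did. That list was drawn up with earlier results of these data known, so the count is a description. Vector 3′ ends are given in deposited intensity units, without scaling. The vector NOS 3′ end read 154 to 705 units with a transgene, 0.498 and -0.437 on wild type replicates 1 and 2, and 52.3 on wild type replicate 3, as labelled. The last array also gave 1160 units of the vector E9 3′ end, against 504 to 591 on the CBF4 arrays. E9 read 137 and 88.3 units on wild type replicates 1 and 2, and 2.2 to 112 on the AtNF-YB1 arrays. Values without wild type replicate 3 are given below. The summed level of the 8 green shoot markers measured, of 31 listed, was 13200 to 14300 normalized units on all arrays. Their means were 10.51 to 10.98 log2. Quantile normalization gives each rank the same value on every array, so sums of such bright markers can say little about tissue make-up. The 9 root markers measured, of 28 listed, summed to 268 to 545 normalized units on the wild type, 336 to 466 on the AtNF-YB1 and 229 to 447 on the CBF4 arrays. That sum was mostly PYK10, with a mean of 8.23 log2 against 3.26 or less for the other root markers, which are described below.

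AT3G23550 encodes a transporter known in Arabidopsis for exporting hydroxycinnamic acid amides, phenolic compounds that act in defence against pathogens. Its level was 5.41, 5.49 and 5.78 log2 on wild type replicates 1, 2 and 3. It was 3.80 and 4.31 on the CBF4 line 10 arrays and 4.04 and 4.20 on the line 19 arrays. All 4 CBF4 arrays were thus below every other array, and the lines of CBF4 overlapped each other. On the AtNF-YB1 arrays the level was 5.88 and 5.92 in line 3 and 5.22 and 4.82 in line 6, so line 3 lay above the wild type range and line 6 below it.

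AT1G71140 encodes a family member whose substrate in the plant is less well known. Its level was 5.14, 4.87 and 5.12 log2 on the wild type arrays, 4.19 and 4.30 on the CBF4 line 10 arrays and 4.30 and 4.31 on the line 19 arrays. The 4 CBF4 arrays spanned only 0.12 log2 and lay below all others. In the AtNF-YB1 lines the level was 5.38 and 5.34 in line 3 and 4.96 and 5.11 in line 6. Line 3 again lay above the wild type range, while line 6 lay within it.

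AT1G15170 stands in a row of MATE genes on chromosome 1, between AT1G15160 and AT1G15180 of the same family. Its level was 4.86, 4.60 and 4.50 log2 on the wild type arrays. It was 4.34 and 4.14 on the CBF4 line 10 arrays and 4.06 and 4.06 on the line 19 arrays, which put all 4 below wild type. On the AtNF-YB1 arrays it was 5.20 and 5.18 in line 3 and 5.17 and 5.05 in line 6, all above wild type. The 3 genotypes therefore did not overlap after normalization, with CBF4 lowest, wild type between and AtNF-YB1 highest.

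**Figure D1:**
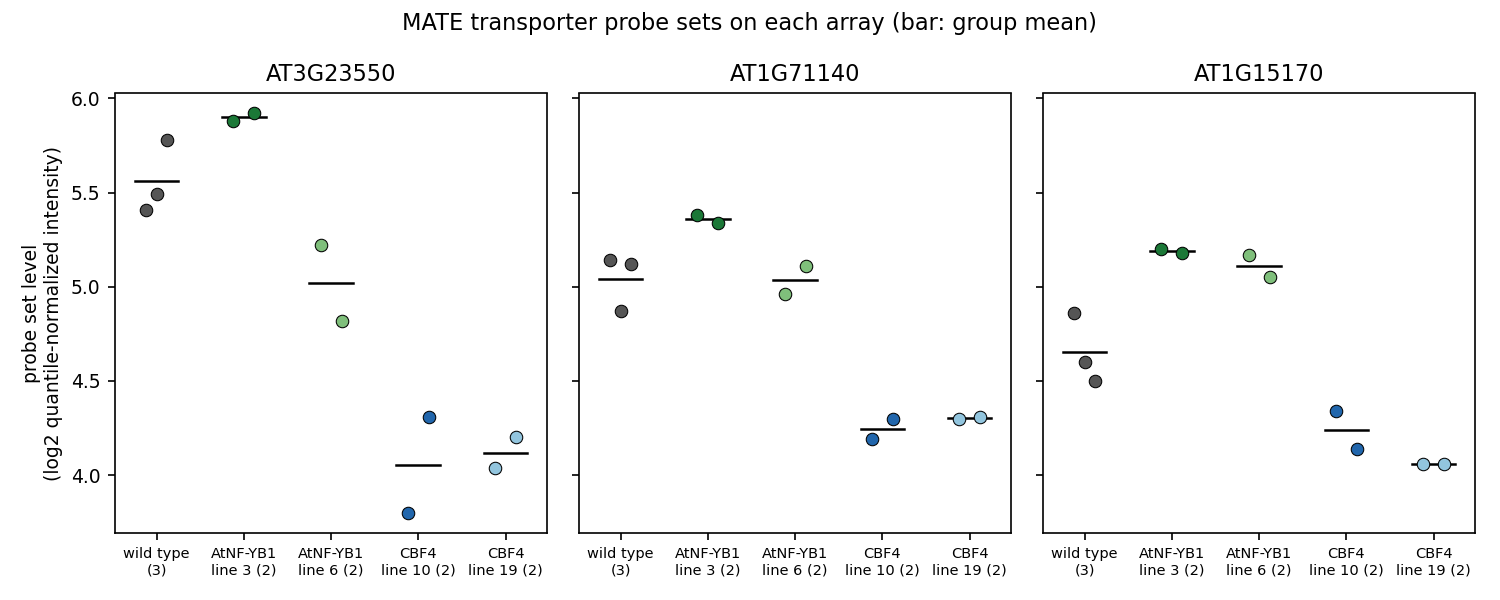
Level of each transporter probe set (log2 quantile-normalized intensity, vertical axis) on every array, by group on the horizontal axis with the number of arrays in brackets; points are arrays and bars are group means. The 4 CBF4 arrays are the lowest for each gene, and AtNF-YB1 is above all wild type arrays on every array only for AT1G15170.

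As deposited, before any scaling, AT3G23550 read 33.6 to 67.3 intensity units in wild type, 27.1 to 68.3 in the AtNF-YB1 lines and 14.2 to 20.8 in the CBF4 lines. AT1G71140 read 22.4 to 47.5, 24.2 to 48.1 and 15.4 to 21.2 units, and AT1G15170 read 18.8 to 39.0, 21.3 to 42.2 and 12.9 to 21.3 units, in the same order. The CBF4 arrays stayed below the others for the first and second gene without normalization. For AT1G15170 the ranges of CBF4 and wild type overlapped, as did those of wild type and AtNF-YB1. There CBF4 and AtNF-YB1 met at 21.3 units, so its 3 genotypes were not apart before normalization. Every one of these values exceeded a background limit, the level that 95% of spike controls stayed under (4.63 to 11.6 units by array), and none of the 3 probe sets was on any array at the floor of 0.93 log2, to which all lower values were raised.

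Set against wild type, the CBF4 lines were lower by 2.78-fold for AT3G23550, at -1.47 ± 0.16 log2 (SE, 4 arrays against 3). AT1G71140 was at -0.77 ± 0.08, 1.70-fold lower, and AT1G15170 was at -0.50 ± 0.09, 1.42-fold lower. Of the 3 genes 2, AT3G23550 and AT1G71140, passed the limma threshold of an adjusted p of 0.05 in this comparison, where 0.232% of the 19371 plant probe sets passed, 0.0516% as lower. Since this comparison chose the genes, nothing is read from that count, and it was 0 of 3 with wild type replicate 3 left out, as it was without wild type replicate 1 or either AtNF-YB1 line 3 array. In the absence of wild type replicate 3 the differences came to -1.36, -0.72 and -0.58 log2. All 3 genes had their 4 CBF4 arrays below all 3 wild type arrays, as did 2.93% of plant probe sets, and below all 7 other arrays, as did 0.883%. In whole shoots, fewer cells of a type and less RNA per cell cannot be told apart.

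Some dim root markers were also lower on the CBF4 arrays. Of the 9 measured 7 were lower in CBF4 than in wild type, with a median difference of -1.08 log2 against 0 over all plant probe sets. Of these, AT1G30870, AT3G01190, AT5G17820 and AT3G25930 had all CBF4 arrays below all wild type arrays, 4 of 9 against 2.93% of plant probe sets, and 0 of 9 passed the limma test; 4 had an unadjusted p below 0.05, as did 6.14% of plant probe sets. The peroxidase gene AT1G30870 had a mean of 2.96 log2 in wild type and 1.11 in CBF4, and AT3G25930 had 3.97 and 2.41. AT5G17820 was not lower in CBF4 alone. Its mean was 2.07 in wild type and 0.93, the floor, in both CBF4 and AtNF-YB1, whose arrays also all lay below wild type. PYK10, a beta-glucosidase of roots and the only bright one of the 9, was at -0.26 ± 0.33 log2. EXPA7 was at -0.07 ± 0.56, AT5G66390 at 0.02 ± 0.83 and AT1G49570 at 0.17 ± 0.38. AT4G11290 was at -2.0 ± 0.69, but its CBF4 and wild type arrays overlapped. Between the constructs the median of the 9 was -0.59 log2, and 1 of them, AT1G30870, passed as lower in CBF4 than in AtNF-YB1 (-2.06 ± 0.22, limma adjusted p = 0.022), where 0.0981% of plant probe sets did. AT1G30870 was at the floor on 3 arrays, and its CBF4 mean of 1.11 log2 lay near the floor of 0.93. Values raised to the floor can narrow its error and limit the size of its difference. Of the 9 markers 6 were at the floor on at least 1 array, 2 on all CBF4 arrays and 0 on all wild type arrays. The part of these differences in the transporter values was not tested.

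The 2 CBF4 lines, whose difference took no part in choosing the genes, were compared with each other. The spread behind the errors does come from the arrays on which the genes were picked. The errors, intervals and p-values may therefore be too small. AT3G23550 differed between line 19 and line 10 by 0.07 ± 0.21 log2 (95% interval -0.44 to 0.57), AT1G71140 by 0.06 ± 0.10 (-0.18 to 0.31) and AT1G15170 by -0.17 ± 0.12 (-0.47 to 0.12). None of the 3 passed (limma adjusted p = 1 for each), in a comparison that called 0.0155% of plant probe sets, and the unadjusted p-values were 0.767, 0.548 and 0.198. Each line's own difference from the shared wild type arrays was -1.51 and -1.44 log2 for AT3G23550, -0.80 and -0.73 for AT1G71140, and -0.42 and -0.59 for AT1G15170, line 10 first. With 2 arrays per line, line differences of up to about 0.57 log2 in AT3G23550 lie within the interval.

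**Figure D2:**
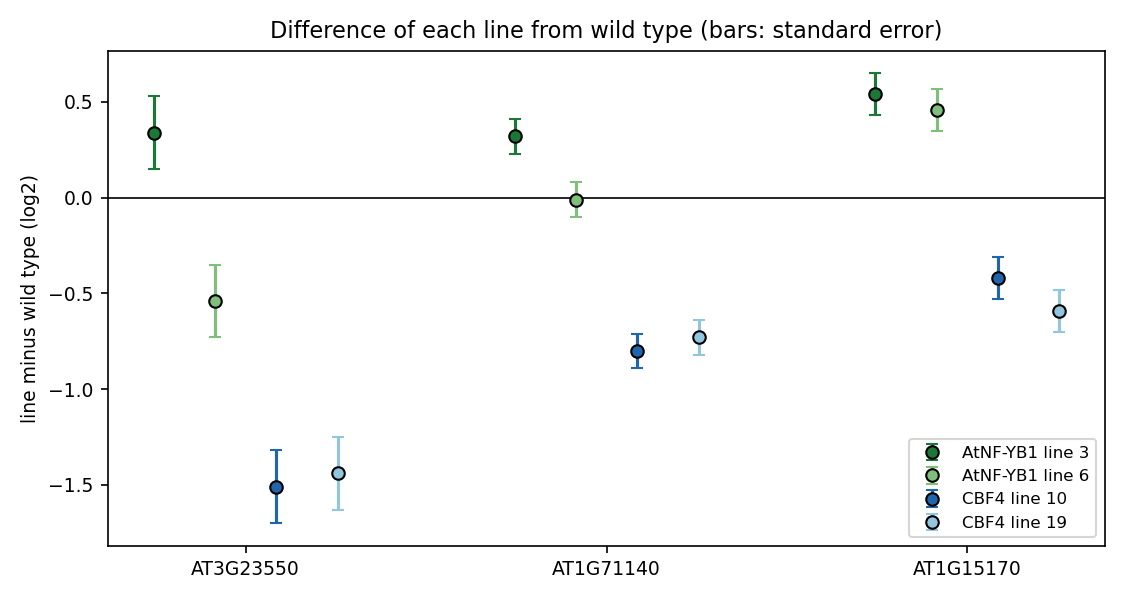
Difference of each transgenic line from wild type (log2, vertical axis) for the 3 transporters, with standard errors from the limma fit as bars; all 4 lines share the same 3 wild type arrays. Both CBF4 lines lie at -0.42 or lower for every gene, whereas the AtNF-YB1 lines lie on opposite sides of 0 for AT3G23550, at 0.34 and -0.54.

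The AtNF-YB1 lines were compared in the same way, with the same limit on errors, intervals and p-values. In line 6 AT3G23550 was at -0.88 ± 0.21 log2 from line 3 (95% interval -1.39 to -0.37) and AT1G71140 at -0.33 ± 0.10 (-0.57 to -0.08), while AT1G15170 was at -0.07 ± 0.12 (-0.37 to 0.22). The arrays of the lines lay apart by 0.66 log2 for AT3G23550 and 0.23 for AT1G71140, and met for AT1G15170 at 5.18 and 5.17. None of the 3 passed the limma test over all probe sets (adjusted p = 0.847, 1 and 1), which called 0.0258%. The unadjusted p was 0.00492 for AT3G23550 and 0.0155 for AT1G71140, and 4.18% of plant probe sets had one below 0.05. On deposited values without scaling the differences were -0.59 ± 0.44 for AT3G23550 and -0.03 ± 0.44 for AT1G71140. The order of mean levels for AT3G23550 was AtNF-YB1 line 3 (5.90 log2), wild type (5.56), AtNF-YB1 line 6 (5.02), CBF4 line 19 (4.12) and CBF4 line 10 (4.05), and only the last pair overlapped.

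Averaged over their lines, the AtNF-YB1 plants were compared with wild type for the 2 genes that this comparison had not picked. AT3G23550 was at -0.10 ± 0.16 log2 (95% interval -0.49 to 0.29) and AT1G71140 at 0.15 ± 0.08 (-0.03 to 0.34), and neither passed (limma adjusted p = 1 for both, unadjusted p = 0.547 and 0.0897). The wild type arrays are those on which the same genes were picked, and the limit on the errors given for the line comparisons holds here too. The mean of AT3G23550 joins a line above and a line below wild type, at 0.34 ± 0.19 and -0.54 ± 0.19 log2. With wild type replicate 3 left out, these became 0.01 and 0.19 log2, so that AT3G23550 changed sign.

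In the AtNF-YB1 plants AT1G15170 stood at 0.50 ± 0.09 log2 above wild type, 1.41-fold, at 0.54 ± 0.11 in line 3 and 0.46 ± 0.11 in line 6. This comparison picked the gene, and the value is a description. It was not among the 0.0155% of plant probe sets that passed there, and its AtNF-YB1 arrays all lay above wild type, as did those of 1.93%. The order of CBF4 below wild type below AtNF-YB1 without overlap was met by 4 of the 19371 plant probe sets (0.0206%), and AT1G15170 was the only one of these at or above the median brightness (0.0103% of such probe sets). As the gene was picked for its place in these comparisons, no test of that order is given. Its difference was 0.42 log2 with wild type replicate 3 left out.

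Between the constructs, AT3G23550 was at -1.37 ± 0.15, AT1G71140 at -0.92 ± 0.07 and AT1G15170 at -1.0 ± 0.09 log2 in CBF4 against AtNF-YB1 (4 arrays against 4). In fold terms they were 2.59, 1.89 and 2 times lower. All 3 genes were past the threshold as lower in that comparison, which called 0.31% of plant probe sets, 0.0981% as lower, and all had their CBF4 arrays below every AtNF-YB1 array, as did 2.48%. The arrays on which the genes were chosen enter this comparison too, so it is no separate evidence. Over 21 other settings AT3G23550 passed in 13, AT1G71140 in 19 and AT1G15170 in 20. With the replicate number as a block only AT1G15170 did, and on deposited values without scaling 0 of 3 did. For AT1G15170 wild type lay between the constructs, with CBF4 at -0.50 and AtNF-YB1 at 0.50 log2 from it. Those distances were -0.40 and 0.60 without wild type replicate 1, -0.58 and 0.42 without wild type replicate 3, and -0.62 and 0.28 unscaled.

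The rest of the MATE family was read on the same arrays. Of 57 loci listed as MATE transporters 31 were measured under a name, the 3 genes among them. Of the other 28, 0 passed in any of the 3 comparisons of genotypes (limma, smallest adjusted p = 0.744), and 0 had an unadjusted p below 0.05, which 6.14%, 4.02% and 7.97% of plant probe sets had for CBF4 from wild type, for AtNF-YB1 from wild type and between the constructs. In CBF4 against wild type 12 of the 28 were higher, 15 were lower and 1 was at the floor on all arrays, with a median difference of -0.02 log2 against 0 over all plant probe sets. In AtNF-YB1 against wild type the median was -0.01 log2, and in CBF4 against AtNF-YB1 it was 0.03. None of the 28 had its CBF4 arrays all below or all above wild type, where 2.93% and 2.30% of plant probe sets did. Of the 28 only 10 were at or above the median brightness, and the other 18 were below it.

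The MATE genes with the smallest p-values among these 28 gave varied values. AT3G21690 was at 1.03 ± 0.45 log2 in CBF4 and 0.51 ± 0.45 in AtNF-YB1, each against wild type. AT2G04080 was at -0.24 ± 0.22 and -0.45 ± 0.22, and AT2G04070, in the same row of genes, at 0.46 ± 0.28 and 0.16 ± 0.28. AT4G22790, known as a regulator of stomatal closure by carbon dioxide, was at 0.02 ± 0.26 and 0.47 ± 0.26. The genes AT1G66760 and AT1G66780 were at -0.36 ± 0.20 and -0.21 ± 0.34 in CBF4 and at -0.02 ± 0.20 and 0.42 ± 0.34 in AtNF-YB1. AT4G23030 was at -0.20 ± 0.57 and 0.67 ± 0.57, and AT1G33090 at 0.28 ± 0.36 and -0.22 ± 0.36. The largest of these errors were those of AT4G23030, a dim gene with a mean of 1.80 log2.

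Members with a known substrate were also among the 28. AT1G51340, a citrate transporter of roots that acts in aluminium tolerance, was at 0.09 ± 0.20 log2 in CBF4 against wild type. AT5G52050 (DTX50), an exporter of the drought hormone abscisic acid, was at -0.10 ± 0.39, and it was dim, with a mean of 1.96 log2. ALF5, the direct neighbour of AT3G23550 and itself a MATE gene, was not analysed here, and nor were AT1G15160 and AT1G15180 on either side of AT1G15170. AT1G15150, a gene of the same row as AT1G15170, was at the floor on all 11 arrays. How far close copies share signal with these probe sets was not tested.

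**Figure D3:**
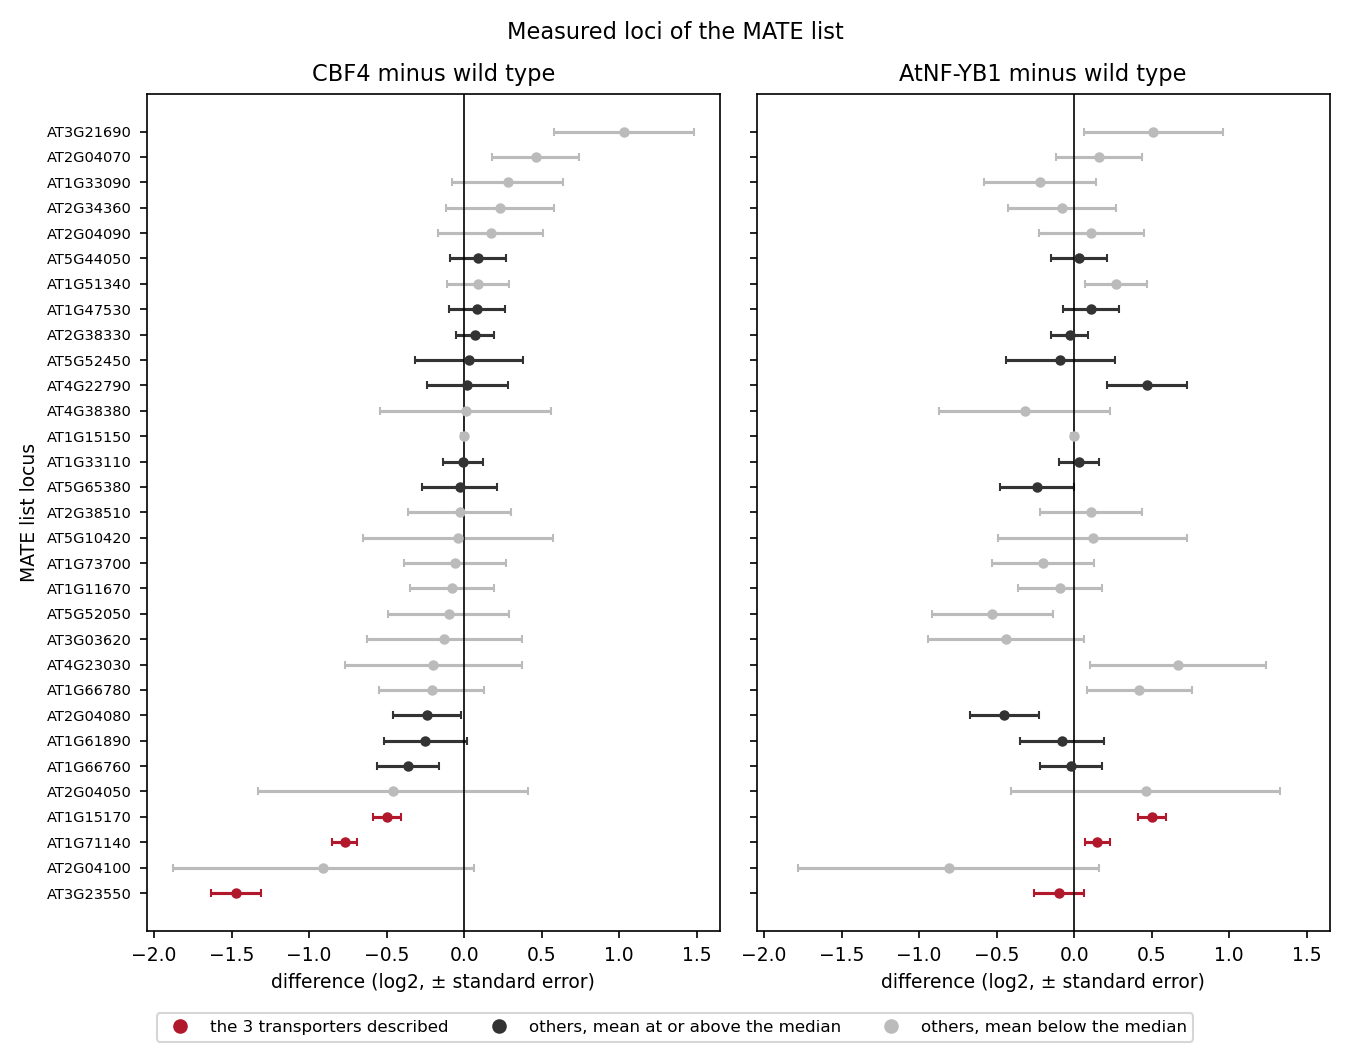
Differences from wild type (log2, horizontal axes, bars are standard errors) of the 31 measured MATE loci (vertical axis) in the CBF4 lines, left, and the AtNF-YB1 lines, right, in the order of the CBF4 difference. The 3 transporters described are in red, and the other loci lie between -0.91 and 1.03 in CBF4, the dim ones in light grey with the widest errors.

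Genes of the wider response to foreign compounds were little covered. Of 31 listed 3 were measured under a name, too few for a count to be read. The limma test called 0 of them in CBF4 against wild type (0.232% of plant probe sets), 0 for AtNF-YB1 against wild type (0.0155%) and 0 between the constructs (0.31%). The glycosyltransferase genes AT4G34131 and AT4G34135 were at -0.13 ± 0.28 and -0.20 ± 0.43 log2 in CBF4 against wild type, and AT4G13180 was at -0.41 ± 0.23. In AtNF-YB1 against the same wild type arrays they were at 0.36 ± 0.28, 0.28 ± 0.43 and 0.30 ± 0.23. Of the 12 listed genes that make the hydroxycinnamic acid amides exported by AT3G23550, 0 were measured under a name.

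The genes whose levels over the 11 arrays were most like each transporter were sought among 5143 other named and bright probe sets, by Pearson r. All share the arrays, their normalization and the difference of the CBF4 group, so r is a description. For AT3G23550 they were AT1G71970 (r = 0.938), AT1G71140 (0.937), AT2G30600 (0.910), AT1G33590 (0.904) and AT4G36500 (0.893). For AT1G71140 they were the cytochrome P450 gene CYP71B22 (0.952), AT3G23550 (0.937), AT1G71970 (0.933), AT1G33590 (0.920) and AT2G43590 (0.899). AT3G23550 and AT1G71140 were thus each the second most alike to the other, and shared AT1G71970 and AT1G33590. Over the 7 arrays without CBF4 the r of the pair was 0.557, and that of AT1G71970 was 0.835 with AT3G23550 and 0.902 with AT1G71140.

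The genes most alike to AT1G15170 were AT5G59540 (r = 0.938), AT5G43450 (0.928), the ATP sulfurylase gene APS3 (0.899), AT3G20370 (0.896) and AT4G13840 (0.891). Its r was 0.88 with AT1G71140, just under the last of these, and 0.746 with AT3G23550. Over the 7 arrays without CBF4 the r was 0.857 for AT5G59540 and 0.896 for AT5G43450. AT5G43450 was at -0.37 log2 in CBF4 and 0.71 in AtNF-YB1 against wild type, and AT3G20370 at -1.04 and 0.43. All the genes listed for AT1G15170 had its signs, which their choice by r over the same arrays favours. CYP71B22 was at -1.18 log2 in CBF4 and 0.16 in AtNF-YB1, and APS3 at -0.62 and 0.15.

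The differences from wild type were recomputed under 21 other settings of the processing. In CBF4 the difference stayed below 0 in all 21 for each gene, from -1.60 to -1.35 log2 for AT3G23550, -0.89 to -0.72 for AT1G71140 and -0.62 to -0.40 for AT1G15170. The threshold was passed in 7, 14 and 1 of the 21. In AtNF-YB1 against wild type AT1G15170 stayed above 0 in all 21, from 0.28 to 0.60 log2, and passed in 0. AT3G23550 ran from -0.31 to 0.01 and AT1G71140 from -0.06 to 0.20.

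**Figure D4:**
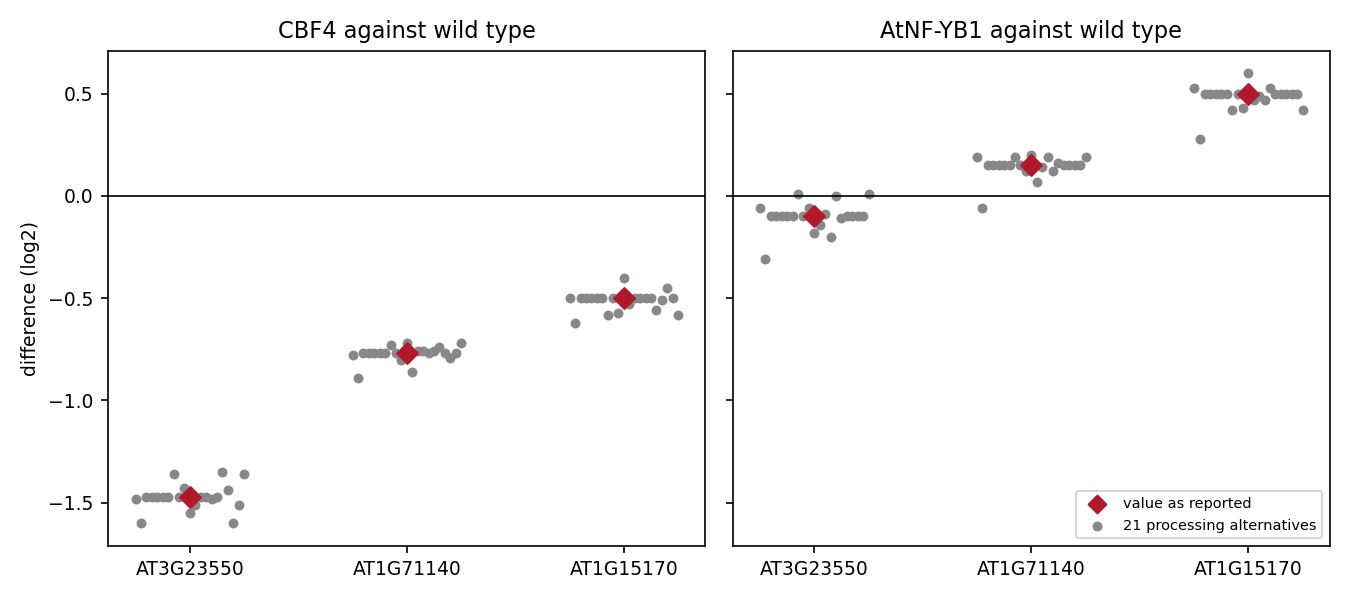
Difference from wild type (log2, vertical axes) of each transporter in CBF4, left, and AtNF-YB1, right, as reported (red diamonds) and under 21 processing alternatives (grey points). In CBF4 every point is below 0, between -1.60 and -0.40, while in AtNF-YB1 the points of AT3G23550 and AT1G71140 reach both sides of 0.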

How the data were processed

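Per the labels, shoot RNA went through an RNeasy extraction and MessageAmp amplification before biotin labelling. The values the authors deposited are linear intensities, 1 per probe set, with 13.4% of plant values below 0; how they were summarized and scaled is not given in the sources used here. Groups and lines came from the sample titles.

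The members and lists were chosen with earlier results of these data known. Controls (122 Affymetrix, 162 spike) were left out. The 19374 remaining probe sets (19371 plant, 3 vector) were quantile normalized, raised to the 20th percentile (1.90 units, 0.93 log2) and put on the log2 scale. A bright probe set had a mean at or above 4.02 log2, the median.

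Differences were tested with limma 3.58.1 in R 4.3.3 (two-sided, lmFit then eBayes). One model held 5 line groups with 6 residual degrees of freedom; it was tested on simulated data. Adjusted p-values are Benjamini-Hochberg over 19374 probe sets, with a threshold of 0.05. Errors are standard errors of that fit. The number of arrays limits the precision. Figures used matplotlib 3.10.9.

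Gene names came from the platform annotation: 11598 plant probe sets had 1 name, 0 several and 7773 none; 11547 matched RefSeq (TAIR10.1) by gene ID. Coordinates are left out, as the probe annotation names no build. A list gene with several probe sets was read on the brightest. From the MATE list of 58 loci, AT4G21900, which RefSeq names PRORP3, was left out. Named were the 3 genes, up to 8 further MATE loci by smallest p in a comparison of genotypes, up to 4 members of other lists, and the 5 genes most alike in level. AT1G51340, AT5G52050 and AT1G15150, and the 9 measured root markers, were named after their values were seen. Same-numbered replicates of different groups had deviations correlated at -0.474 to 0.414, and differently numbered ones at -0.414 to 0.474. In a group of 2 arrays the deviations mirror each other, so these ranges cannot show whether the numbers pair samples. The main fit did not pair them, and a shared batch was not tested. Alternatives changed the scaling, the floor, the filter, the fit and the arrays used.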

Additional observations from a re-analysis of the deposited data

Results flagged for a closer look

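Among the 31 measured MATE loci, the 4 arrays of each construct were searched for an array that stands apart from the other 3, by Dixon's gap over range against its 95% critical value. Chance marks about 1 in 20 such groups where values vary freely, a rate that does not hold for arrays at the floor. Of the 62 groups 3 were marked. Groups without spread, such as those of AT1G15150, could not be. In AT1G71140 on the CBF4 arrays the ratio was 0.891: line 10 replicate 1 read 4.19 log2 and the nearest array 4.30, within a span of 0.12. In AT2G04050 on the CBF4 arrays it was 0.924, with line 19 replicate 2 at 2.20 log2 and the nearest at 1.03. In AT2G38510 on the AtNF-YB1 arrays it was 1, with line 3 replicate 2 at 2.20 log2 and the others at the floor of 0.93.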

How the results depend on the processing

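The counts of probe sets called were 45 for CBF4 against wild type, 3 for AtNF-YB1 against wild type, 60 for CBF4 against AtNF-YB1, 3 for CBF4 line 19 against line 10 and 5 for AtNF-YB1 line 6 against line 3; other counts follow in this order. On deposited values without scaling they were 5, 0, 9, 0 and 1. With the replicate number as a block they were 13, 0, 21, 0 and 1. Taking line as a random effect, the first 3 were 149, 9 and 117. With only the groups compared CBF4 against wild type gave 25, AtNF-YB1 against wild type 5, and both line comparisons 0. AtNF-YB1 against wild type gave 8 with a higher floor, 0 without dim probe sets, 1 with lines pooled, and 5 with a trended variance or array weights. The line comparisons gave 5 and 12 with a higher floor and 0 without dim probe sets. Leaving out 1 array at a time gave 25 to 130, 2 to 165, 44 to 240, 0 to 98 and 3 to 207, the highest counts where a line kept 1 array, which was assumed to vary like the other groups.

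Of 303 recomputed differences of the 3 transporters 291 kept their direction and side of the threshold or moved by less than the spread between replicates. Another 4, all unscaled, moved by more and kept their sign, and 8 small differences changed sign, none of them past the threshold. The size of the shift alone was judged for CBF4 against wild type or AtNF-YB1, and for AT1G15170 in AtNF-YB1 against wild type. The 291 therefore does not count stable calls. In CBF4 against wild type AT3G23550 passed in 7 of 21 settings, AT1G71140 in 14 and AT1G15170 in 1. AT3G23550 in AtNF-YB1 against wild type was 0.01 log2 with the replicate block and 0.01 without wild type replicate 3 (-0.20 to 0.01 leaving out 1 array). Between the CBF4 lines it was -0.13 unscaled, -0.19 without line 10 replicate 1 and -0.02 without line 19 replicate 2 (-0.19 to 0.32 leaving out 1 array). Unscaled, AT1G71140 was -0.06 in AtNF-YB1 against wild type and -0.14 between the CBF4 lines, and AT1G15170 was 0.24 between the AtNF-YB1 lines. In CBF4 against wild type, leaving out 1 array left 0 to 2 of the 3 genes past the threshold: 0 without wild type replicates 1 or 3 or either AtNF-YB1 line 3 array, 0 with the replicate block, and 2 without either CBF4 line 10 array. A floor at the 10th percentile was not run, as that percentile is below 0. The causes of these changes were not tested.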

Other observations

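The 4 plant probe sets that lay in the order CBF4 below wild type below AtNF-YB1 with no overlap were singled out once their values were known. Beside AT1G15170 they were AT3G20340, with means of 1.48, 2.91 and 4.32 log2, the drought-induced linker histone gene HIS1-3, at 2.79, 3.82 and 4.54, and AT3G22670, at 2.38, 2.91 and 3.33. The opposite order was met by 4 probe sets as well, 2 of them with a gene name: AT5G39570, at 9.23, 9.02 and 8.95 log2 in CBF4, wild type and AtNF-YB1, and AT1G05170, at 5.38, 4.81 and 4.47.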
